A study of Gallus gallus with 4 samples.

Results

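Bone morphogenetic protein 2 (BMP2, ENSGALG00000008830) and bone morphogenetic protein 15 (BMP15, ENSGALG00000004742) were followed through the gene lists of an ovary RNA sequencing study of the Ningdu Yellow chicken. Both were found by name in the part of the study's gene table at hand and then by identifier, and they are 2 of the 11884 genes that the deposited gene ontology (GO) tables name. Ovaries came from a sub-breed with early sexual maturity, from pre-laying hens 32 days old (P-F-O1) and laying hens 103 days old (P-F-O2). Those of a sub-breed with late sexual maturity came from pre-laying hens 32 days old (L-F-O1) and from hens 153 days old (L-F-O2). The sample label of L-F-O2 gives laying hens and the design text gives pre-laying hens, so only its name and age are used. The 32 and 103 day ovaries form the early comparison and the 32 and 153 day ovaries the late comparison. The RNA of several hens' ovaries was pooled in equal amounts into each library, and each condition had 1 library, so no difference between ages has a replicate check and no test between conditions was possible.

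Bone morphogenetic proteins are secreted ligands of the transforming growth factor beta family. They are made as precursors, released as dimers and bound by paired type I and type II serine/threonine kinase receptors, which signal through SMAD proteins to the nucleus. BMP15 is known as an oocyte factor that acts on the granulosa cells around the egg, and BMP2 is a ligand with roles in embryonic patterning, in bone and, among other tissues, in the ovary.

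The deposited tables hold lists of genes and no expression value for any library. For each GO term they name the population genes annotated with it and, among these, the genes that the authors called differentially expressed between the 2 ages on the size of the change or on its p-value (called genes below). A list gives no direction and no size of change. Within a listed term, a gene that is in the population list and not in the list of called genes was not called. Such a gene may be unchanged or undetected, since the paper reports fewer detected genes than the GO population holds. The authors kept terms with small p-values in these tables, 166 in the early and 182 in the late comparison, with 125 in both, so terms outside these lists could not be examined. The paper reports fewer enriched terms in each comparison, at its adjusted p-value threshold, so a listed term is not always one of those. Expression values in the paper's supplement were not used, so no expression level of oocyte, granulosa or theca markers was set beside the label ovary. In a whole ovary, moreover, a change in RNA per cell and a change in the number of cells that make it cannot be told apart.

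In the deposited lists, BMP2 was called in both comparisons and BMP15 in the early comparison alone. The early comparison called 5037 of the 17934 population genes (28.1%) and the late comparison 4163 (23.2%). Among the genes named in listed terms, 28% were called in the early and 22.1% in the late comparison. BMP2 stood in 19 listed terms of the early comparison and 29 of the late comparison, and in each of them it was among the called genes. BMP15 stood in 6 terms of the early comparison, called in all 6, and in 9 terms of the late comparison, called in none. A gene called in a comparison is in the called list of every listed term that holds it. These numbers therefore repeat the same call and are not separate results. Both genes were chosen by a table of genes called in the early comparison, so that call is a description and not a result. Whether the 2 comparisons differed for BMP15 was not tested here. By quantitative PCR, unlike in its sequencing calls, the paper reports BMP15 as differentially expressed in both comparisons. A gene can be called on one side of a fold threshold and missed on the other with only a small difference in level, and the lists hold no level.

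Every listed term of BMP15 also held BMP2. Over both tables BMP2 had 31 terms and BMP15 had 9, all 9 of them shared, which is 100% of the terms of BMP15 and 29% of those of BMP2 (Jaccard index 0.29, the shared terms divided by all terms of either gene). The 6 shared terms listed in both comparisons were growth factor activity, extracellular space, extracellular region part, receptor binding, single-organism process and developmental process. They describe a secreted ligand that binds a receptor and takes part in development. The other 3 shared terms, anatomical structure development, cellular developmental process and the root term cellular_component, were listed in the late comparison only.

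Growth factor activity was the smallest of these terms, with 84 population genes. Of these, 41 (48.8%) were called in the early comparison and 39 (46.4%) in the late comparison. BMP2 belonged to the 28 genes called in both and BMP15 to the 13 called in the early comparison alone, whereas 11 were called in the late comparison alone and 32 in neither. All 84 genes were also in receptor binding, and 31 of them were in extracellular space.

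Extracellular space held 288 population genes, of which 134 (46.5%) were called in the early and 129 (44.8%) in the late comparison. Extracellular region part, which contains all 288, had 210 of 445 (47.2%) and 203 (45.6%). Receptor binding had 213 of 567 (37.6%) and 199 (35.1%). These are the terms that place both proteins outside the cell and at a receptor, and in each of them a larger share of genes was called than in the whole population of either comparison. The terms share genes and were listed by the authors for small p-values, so these shares are a description and not separate results.

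The broad process terms had smaller shares. Single-organism process had 588 of 1584 genes called (37.1%) in the early and 521 (32.9%) in the late comparison. Developmental process, which covers the formation of tissues and organs, had 578 of 1733 (33.4%) and 525 (30.3%).

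**Figure D1:**
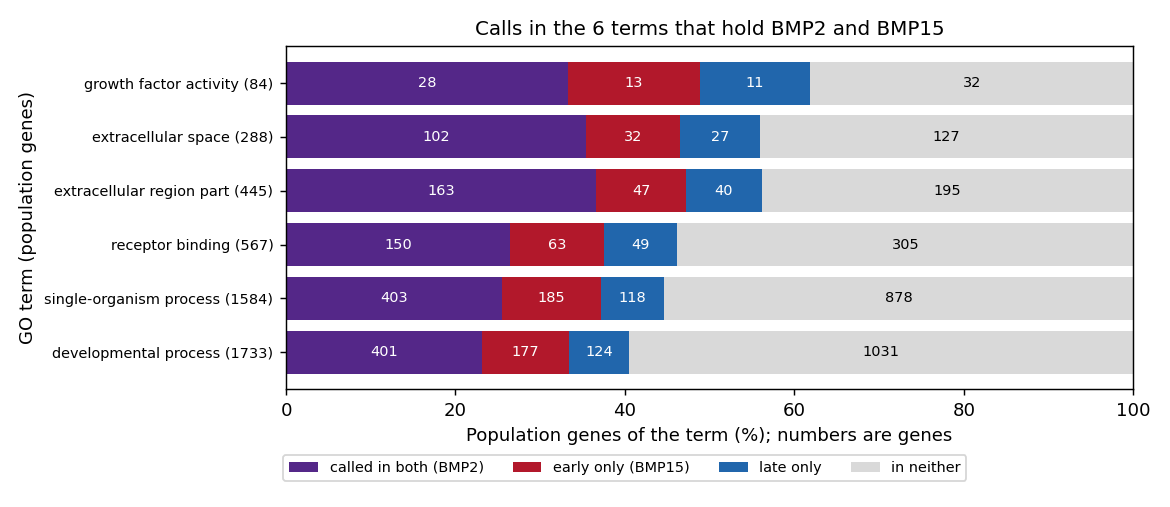
Each bar is 1 of the 6 GO terms that hold BMP2 and BMP15 in both comparisons, split by whether its population genes were called in both comparisons, in the early or late comparison only, or in neither; the x axis is the percentage of the term's population genes and the numbers are genes. BMP2 belongs to the part called in both and BMP15 to the part called in the early comparison only, which holds 13 of 84 genes in growth factor activity and 177 of 1733 in developmental process.

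In all 6 terms the genes called in both comparisons, the part with BMP2, outnumbered those called in the early comparison alone, the part with BMP15. The share of early calls that were also called in the late comparison was lowest in growth factor activity, at 68.3%, and highest in extracellular region part, at 77.6%. Over all genes called in the early comparison and named in the late lists, it was 63.7% (2037 of 3198 genes). BMP15 was therefore on the less common side in each of these 6 terms. The terms share genes, and most early calls of any kind were late calls too, so this is no result about BMP15.

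BMP2 had 22 terms that did not hold BMP15, of which 11 were listed in both comparisons. Extracellular region had 185 of 371 genes called in the early comparison (49.9%), the highest share among the 19 terms of BMP2 there, and 166 (44.7%) in the late comparison. This term does not contain extracellular region part: the lists of these 2 terms shared 150 genes, and 221 genes of extracellular region were not in extracellular region part. BMP15 was in the part and in extracellular space but not in extracellular region.

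Regulation of localization (599 genes), anatomical structure formation involved in morphogenesis (679 genes) and regulation of multicellular organismal process (846 genes) also held BMP2. Their called shares lay from 34.9% to 36.9% in the early and from 30% to 33.2% in the late comparison. Single-multicellular organism process and multicellular organismal process, which are nearly the same list with 1017 and 1020 genes, had 37.5% and 37.4% called in the early comparison and 32.7% each in the late comparison.

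The remaining 5 terms of BMP2 in both tables had smaller shares of called genes than the population. These were catalytic activity (24.6% of 4374 genes in the early and 19.7% in the late comparison), cellular metabolic process (25.5% of 4034 genes and 20.5%), macromolecule modification (22.4% of 1338 genes and 17.2%), protein modification process and cellular protein modification process. The last 2 hold the same 1275 genes, with 22.7% called in the early and 17.3% in the late comparison. BMP2 is a ligand, and the tables do not say through which annotation it came under an enzyme or modification term. BMP15 was in none of these 5.

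**Figure D2:**
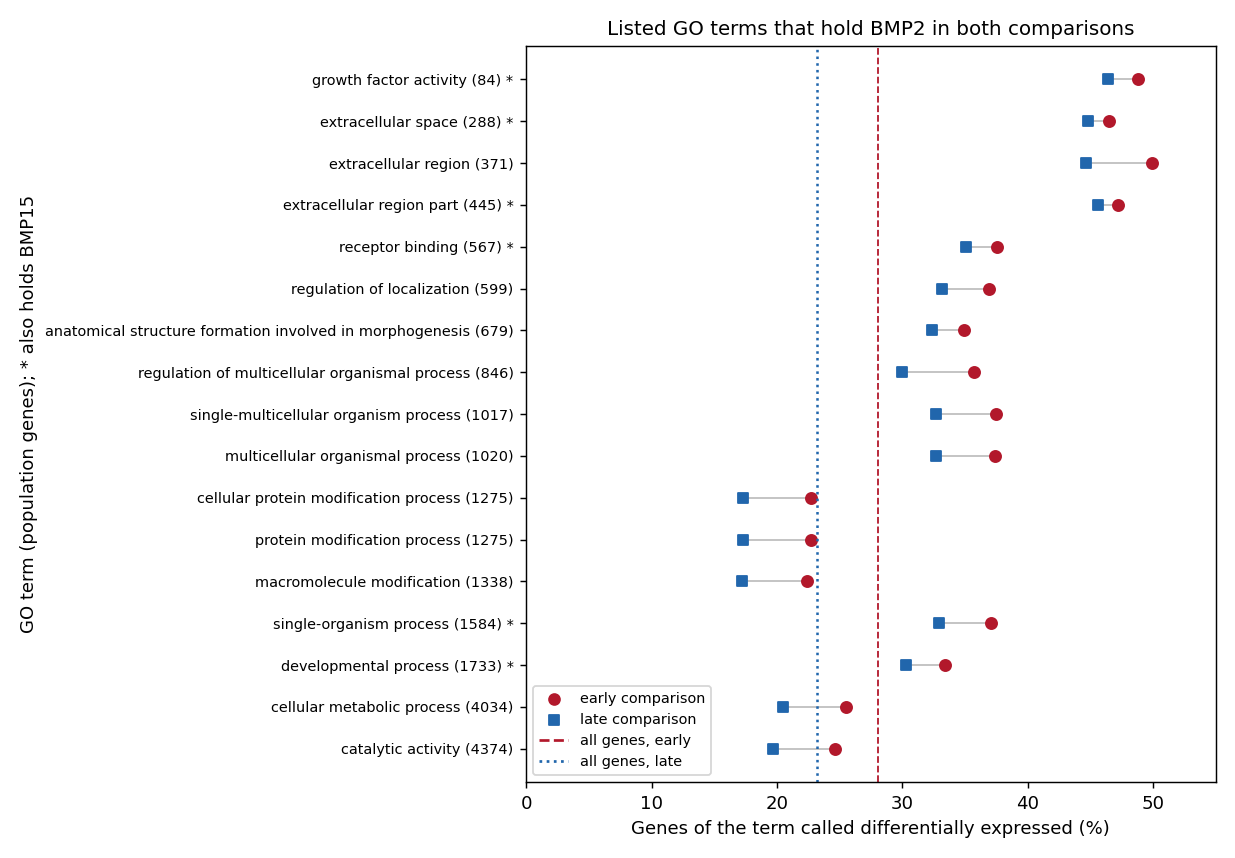
Each row is 1 of the 17 GO terms that hold BMP2 in both comparisons, with its number of population genes; a star marks the 6 that also hold BMP15. Points give the percentage of the term's genes called in the early (circles) and late (squares) comparison, and the vertical lines give all population genes at 28.1% and 23.2%; 12 terms lie to the right of the lines in both comparisons and the 5 metabolic and modification terms lie to the left in both.

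Some terms were listed in 1 comparison only. For BMP2 these were defense response (81 of 175 genes, 46.3%) and positive regulation of response to stimulus (164 of 442, 37.1%) in the early comparison, and 12 terms in the late comparison. Of the latter, positive regulation of multicellular organismal process was the smallest, with 79 of 225 genes called (35.1%). Organ development (158 of 503, 31.4%), regulation of cell proliferation (169 of 536, 31.5%), response to organic substance (176 of 560, 31.4%) and anatomical structure morphogenesis (213 of 678, 31.4%) followed in size. Response to chemical stimulus (29.1% of 899 genes) and response to stimulus (26.1% of 3189 genes) were above the 23.2% of the population as well. Cellular protein metabolic process (18.5% of 1571 genes) and cellular macromolecule metabolic process (19.6% of 2845 genes) were below it. Of the late terms of both genes, anatomical structure development had 30.1% of 1104 genes called, cellular developmental process 30.7% of 884, and cellular_component 21.9% of 9445.

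By gene, 14 of the 19 early terms and 21 of the 29 late terms of BMP2 had a called share above that of the population, with medians of 37.1% and 31.4%. For BMP15, it was 6 of 6 early terms and 8 of 9 late terms, with medians of 42% and 32.9%. Of all listed terms, 89 of 166 in the early and 93 of 182 in the late comparison lay above the population share. The medians over all listed terms were 35.9% and 27.8%. When the distinct genes of all terms of a gene were pooled, 29.3% (early) and 22% (late) were called for BMP2 and 35.7% and 22.1% for BMP15. Both late values lay below the 23.2% of the population but close to the 22.1% of all genes named in late listed terms. The late pools include the root term cellular_component (9445 genes, 21.9% called), which was not listed in the early comparison. The early and late pools are therefore unlike sets of genes. The terms of one gene overlap, and the authors listed terms for their p-values, so these medians describe the lists and are not a test of either gene.

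Few genes shared the whole profile of BMP15. All 9 of its terms held 10 genes, BMP2 and BMP15 included. Of the other 8, 3 were called in the early and 1 in the late comparison. The 6 terms in both tables held 14 genes, and of the other 12, 4 were called in the early and 3 in the late comparison. The shares over all genes named in listed terms were 28% and 22.1%, and with so few genes these counts are no result about them. BMP2 was the only gene under all 31 of its own terms.

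By Jaccard index over the listed terms, the gene most like BMP2 was ENSGALG00000007668, with 28 shared terms (index 0.875), which was called in neither comparison. The 10 genes most like BMP2 had indices down to 0.595, and 2 of them were called in the early and 2 in the late comparison, against the same shares of 28% and 22.1%. Of these 10, only LIF, the cytokine leukemia inhibitory factor, has a name in the table used here (24 shared terms, index 0.6), and it was called in both comparisons. The most similar gene to BMP15 was ENSGALG00000009612, with 5 shared terms (index 0.556) and no call. Of the 10 most like BMP15, 6 were called in the early and 2 in the late comparison, against 28% and 22.1% of all genes named in listed terms. The one with a name was PCSK2, a protease that cleaves prohormones (5 shared terms, index 0.455), called in the early comparison alone like BMP15. These 10 genes were picked for sharing terms of BMP15. The called shares of those terms ran from 33.4% to 48.8% in the early and from 21.9% to 46.4% in the late comparison. With 10 genes per member, picked for shared terms, the counts of calls are no result about them. An index near that of the next gene rests on 1 term, and likeness of annotation says nothing about expression.

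Of the wider BMP pathway, 8 of 89 listed genes, BMP2 and BMP15 included, had a name paired with an identifier. The part of the gene table used here covers only some of the genes called in the early comparison. All 8 were called there for that reason. In the late comparison 6 of the 8 were called. Of the early-called genes with a name that also stand in late listed terms, 63.8% were called there (802 of 1257). The count is therefore no result about these 8 genes.

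Among ligands, GDF10, also known as BMP3B, was called in both comparisons like BMP2. It had 4 listed terms, all shared with BMP2 and 3 of them with BMP15. ACVR2B, a type II receptor for activins and several BMPs, and ENG (endoglin), a co-receptor of the family, were called in both comparisons as well. Both stood in many listed terms, 46 and 41, of which 19 each were shared with BMP2 and 3 and 8 with BMP15. CHRDL1, a secreted BMP antagonist of the chordin type, was called in both comparisons and shared none of its 3 terms with either gene. TLL2, a metalloprotease related to tolloid, whose relatives cleave chordin, was called in both. SMURF2, a ubiquitin ligase that directs SMAD proteins and receptors to degradation, was called in the early comparison only, like BMP15.

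Among 62 other genes of growth factor families, 11 had a name, and 7 of these were called in the late comparison, against the same 63.8%. FGF12 and FGF13 belong to the FGF family by sequence but act inside the cell. FGF8, FGF12, FGF13 and FGF18, WNT5A, WNT9A and IGF2 were called in both comparisons, and FGF4, FGF16, WNT8C and MDK (midkine) in the early comparison only. WNT5A shared 28 terms with BMP2 and 8 with BMP15. FGF8, FGF12, FGF13 and FGF16 had only 2 listed terms each, whereas FGF18 had 27. Terms outside the lists were not seen, so these numbers do not give the full annotation of a gene. Within growth factor activity, 17 of the 84 genes had a name, all of them called in the early comparison because names came only from genes called there. Of these 17, 12 were called in the late comparison too and 5, BMP15 among them, were not. The shares to set beside this are the 63.8% of early-called named genes in late listed terms and 68.3% of the early calls of this term.

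**Figure D3:**
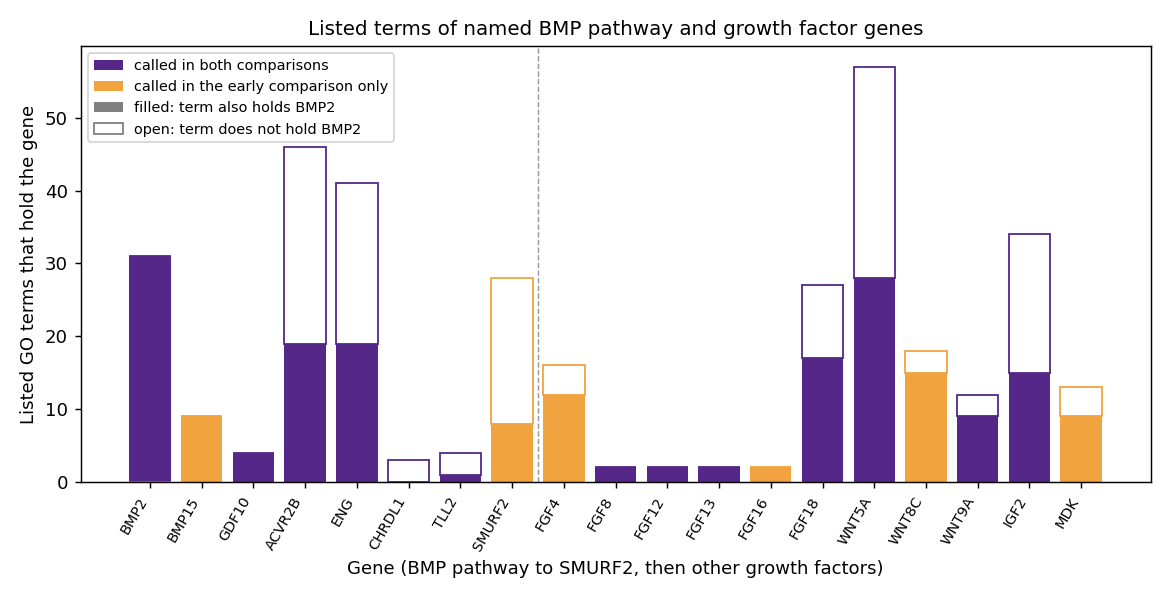
Bars give the number of listed GO terms (y axis) that hold each named gene (x axis) of the BMP pathway, left of the dashed line, and of the other growth factors, right of it; the filled part is shared with BMP2, and the colour gives the call. BMP15 has 9 terms, all filled, whereas ACVR2B has 46 terms with 19 filled and CHRDL1 has 3 with none filled.

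Genes that mark the cells of the ovary were set beside BMP15, which is itself made by the oocyte. The zona pellucida genes ZP2, ZP3, ZP4 and ZPD, which encode proteins of the egg coat, were called in both comparisons. The lists do not say which cells of the ovary made these RNAs. BMP15 was called in the early comparison only. STAR, which delivers cholesterol for steroid synthesis, was called in the early comparison only, and CYP17A1, a steroidogenic enzyme of theca cells, in both. The leukocyte genes PTPRC and CD3E were called in both and in the early comparison only, respectively. Of 28 listed markers, BMP15 included, 9 had a name, and all 9 were called in the early comparison for that reason. In the late comparison 6 of the 9 were called, against 63.8% of the early-called genes with a name that also stand in late listed terms. That count is no result about these markers. The lists carry no direction, and expression values in the paper's supplement were not used. Whether any of these genes moved the same way as BMP15 was therefore not examined here. The part of cell number in any of these calls was not tested.

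Neither gene was in a list of called genes of a pathway in the Kyoto encyclopedia (KEGG), with 69 pathways listed in the early and 68 in the late comparison. The TGF-beta signaling pathway, the pathway of the BMP ligands, had 6 background genes, of which 1 was called in each comparison. Cytokine-cytokine receptor interaction had 6 of 10 genes called in the early and 5 in the late comparison, and oocyte meiosis had 3 of 8 in each. Over all population genes of the GO analysis, 28.1% were called in the early and 23.2% in the late comparison. With so few background genes per pathway, these counts are no result about the pathways.

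The KEGG lists came from a narrow range of identifiers. They named 181 genes over both comparisons, and 176 of these had an identifier number below 3000, against 4742 for BMP15 and 8830 for BMP2. Of the genes called in GO lists of the early comparison, 144 of 465 numbered below 3000 were in a KEGG list (31%), and 4 of 2737 numbered 3000 or above (0.146%). In the late comparison it was 119 of 363 (32.8%) and 4 of 2257 (0.177%). The bound of 3000 was chosen after the identifiers were seen. Absence from the KEGG lists was thus the rule for called genes numbered like BMP2 and BMP15, and it gives no information on the pathways of these genes.

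**Figure D4:**
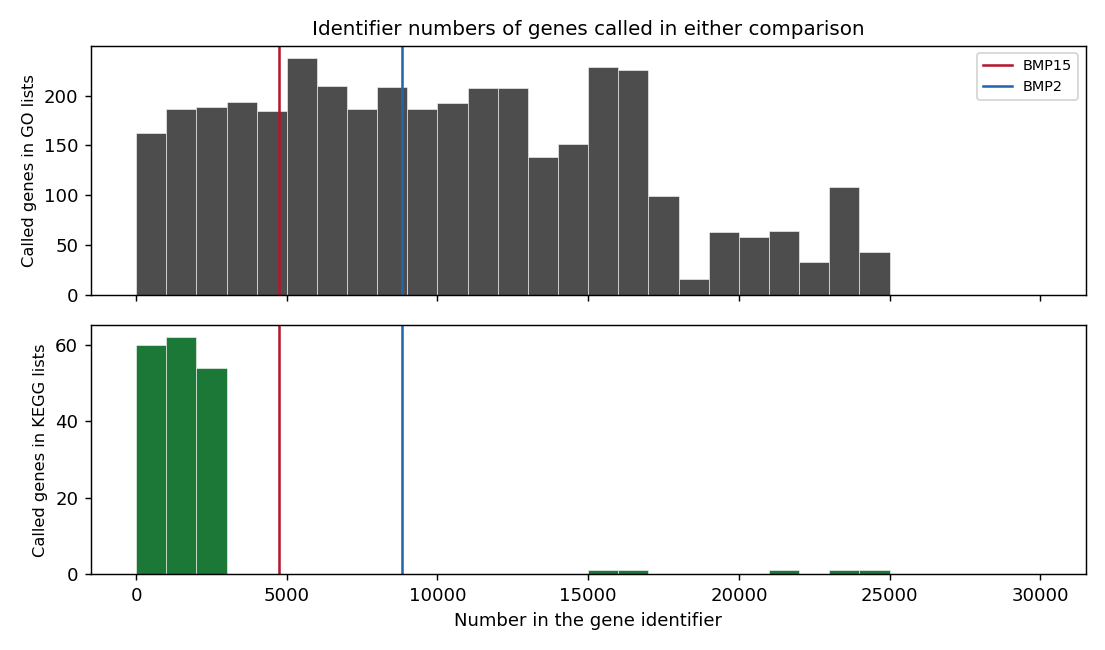
Histograms of the number in the gene identifier (x axis) for genes called in either comparison that the GO lists (upper, y axis genes per 1000 numbers) and the KEGG lists (lower) name; vertical lines mark BMP15 at 4742 and BMP2 at 8830. The KEGG genes stand almost all below 3000, and the GO genes extend over the whole range.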

How the data were processed

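Reads were trimmed by the authors with SeqPrep and Sickle and mapped to galGal4 by TopHat; FPKM and Cuffdiff calls between 2 pooled libraries followed, and the calls were tested with Goatools and KOBAS. Tool versions are not given in the sources used here. The deposited GO and KEGG tables hold gene numbers and identifiers per term, and the authors' p-values, which were not used. They give no counts, depth or level per library. Expression values in the paper's supplement were not used, and the supplement served only to pair 1539 identifiers with names. Of the 11884 identifiers named in the GO lists, none matched the GRCg7b annotation directly, and no sequence or coordinate is given.

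In the late GO table, 44 identifiers broken across lines were completed from the 1 intact identifier that matched each and sorted between its neighbours. After this every list had its deposited length. The routine was tested on simulated data. Shares are called genes divided by population genes. Genes and terms are not replicates, and no set test was run. Named genes were both members, all listed BMP pathway, growth factor and marker genes with a paired name, and the 10 nearest genes by Jaccard index, by name or, for the first, by identifier. LIF and PCSK2 came from the last part. The members and lists were chosen with earlier results of these data known. Python 3.11.15, NumPy 2.4.6, SciPy 1.17.1 and matplotlib 3.10.9 were used. Alternatives were term size, identical lists, category, list repair, pooled genes and term weights.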

Additional observations from a re-analysis of the deposited data

How the results depend on the processing

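Leaving out the broken identifiers changed no number of terms for BMP2 or BMP15. Of 37 alternative values, 21 stayed within 1.5 times the main count or within the 95% exact binomial interval of the main share, and 16 moved. A median over overlapping terms is not a binomial share, so this tally only sorts the values and is no measure of robustness. With terms of at most 500 genes only, BMP2 had 6 early and 5 late terms and BMP15 had 3 and 3; the median called shares were then 46.9% and 44.8% for BMP2 and 45.6% for BMP15 in the late comparison. With biological process terms only, BMP15 had 2 early and 4 late terms, with medians of 35.2% and 30.5%. With the distinct genes of all terms pooled, the called share was 29.3% (early) and 22% (late) for BMP2 and 35.7% and 22.1% for BMP15. The late values lie below the 23.2% of the population but close to the 22.1% of all genes named in late listed terms. Their pools include the root term cellular_component (9445 genes, 21.9% called), listed in the late comparison only. With terms weighted by rarity, 6 of the 10 genes most like BMP15 remained. No paired analysis was possible because each condition had 1 library and the tables hold no value per library. The depth behind the calls is not in the deposited tables. The paper reports more mapped reads, and a smaller percentage of reads mapped, for the older library of each comparison. The part of depth in the calls was not tested.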
